A study of Mus musculus with 2 samples.

Results

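A set of 32 genes of cholesterol and fatty acid synthesis, targets of the SREBP transcription factors or their regulators, was followed in cultured mouse hippocampal neural stem cells. They were taken by name from the deposited table of kept cells, which lists 15364 genes, and all 32 were found, Msmo1 under its older symbol Sc4mol. The set holds 18 sterol enzymes (7 of the mevalonate branch and 11 from squalene to cholesterol), 9 fatty acid enzymes and 5 regulators and carriers (Srebf1, Srebf2, Scap, Insig1 and the sterol carrier Stard4). They were listed by pathway and not by a threshold on measured values.

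Hippocampi of 6-week-old C57BL6/J males were the source of the stem cells. The activated culture grew without serum, with B27, heparin at 5 µg/mL, and FGF-2 and EGF at 20 ng/mL. The quiescent culture was made from activated cells by replacing EGF with BMP-4 at 50 ng/mL while FGF-2 stayed, over 3 days. For the exit cultures, sampled after 24 h and 48 h, quiescent cells were returned to activation medium with noggin, a BMP-4 antagonist, at 0.5 µg/mL. Single cells of each culture were sorted from 4 gates of rising autofluorescence (Low, Low-mid, Mid-high and High), the light that unstained cells give off, and their RNA was counted by SORT-seq, which tags each molecule with a random identifier. Quiescent and 24 h exit cells shared 1 plate, and activated and 48 h exit cells the other, so every contrast across these pairs is also a contrast between plates, and culture and plate cannot be told apart. The contrasts share cultures and are not independent of each other.

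Cells make cholesterol from acetyl-CoA through mevalonate, farnesyl diphosphate, squalene and lanosterol, and make long-chain fatty acids from the same acetyl-CoA. The precursors of SREBP-1 and SREBP-2 are held in the endoplasmic reticulum by SCAP and INSIG when sterols are plentiful. When sterols run low, SCAP carries them to the Golgi, where they are cut, and the freed part enters the nucleus and switches on the synthesis genes. SREBP-2 acts mainly on sterol genes and SREBP-1c mainly on fatty acid genes. In the brain cholesterol is made locally, since lipoproteins of the blood do not cross the blood-brain barrier, and lipid synthesis has been tied to the growth of adult neural stem cells.

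The table held 640 cells: 174 quiescent, 151 at 24 h, 151 at 48 h and 164 activated, with 32 to 46 in each culture and gate. Cell totals ran from 5013 to 97009 transcripts, and the cultures summed to 4815930, 3046630, 4125230 and 6563490 transcripts in that order. No cell name occurred on both plates. In all 4 cultures 7 or 8 of 8 stem and progenitor markers had counts, summing to 3706 to 6396 CPM, with Prom1 at 0.415 CPM or below. Astrocyte markers summed to 1857, 2880, 1064 and 552 CPM in the quiescent, 24 h, 48 h and activated cultures, an order that is the reverse of the sterol sums below, and their part in those results was not tested. The single markers did not share this order. Slc1a2, Slc1a3 and Gja1 were highest at 24 h, Aqp4, S100b and Gfap in quiescence, and Aldh1l1 in the activated culture. Of the oligodendrocyte lineage, Olig1 and Olig2 were high in all cultures (487 to 2284 CPM) while Mbp, a myelin protein gene, was at 0.328 CPM or below. The microglial list summed to 1.97 CPM or below, and the endothelial and pericyte list to 0.831 CPM or below.

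Sterol enzymes were low in the quiescent and 24 h cultures and high in the 48 h and activated cultures. The 18 genes summed to 1207 CPM (a gene's summed count scaled to the same total in every culture; 95% Poisson interval 1176 to 1238) in the quiescent culture and to 927 (893 to 962) at 24 h. They summed to 2520.3 CPM (2472 to 2569) at 48 h and to 3693 (3647 to 3740) in the activated culture. The labels name 1 culture for each condition and cells are not replicates, so no test was made between cultures: intervals cover counting error only, and a gene is called where its ratio of CPM + 10 passes 1.5-fold with at least 20 counts in the 2 cultures. All 32 genes had at least 20 counts in each of the 5 culture contrasts.

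**Figure D1:**
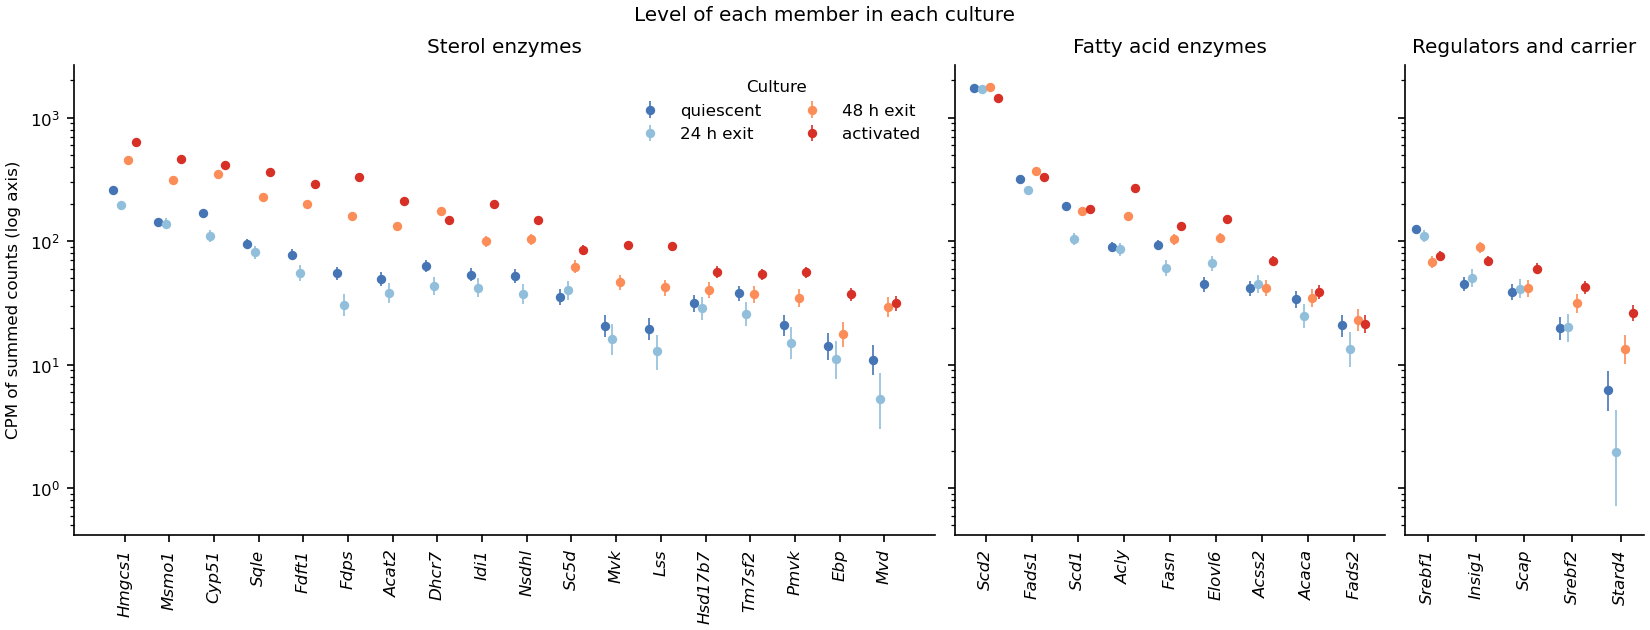
CPM of summed counts on a log axis for each of the 32 genes in the 4 cultures, with exact 95% Poisson intervals. For most sterol enzymes the activated culture is highest and the 24 h culture lowest, while Scd2, Fads1 and Scd1 lie close together in most cultures and Srebf1 is highest in the quiescent culture.

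Activated cells held more transcript of 17 of 18 sterol enzymes than quiescent cells, past 1.5-fold, against 19.8% of 11011 genes called higher and 14.3% called lower. The median log2 ratio of the 18 was 1.30, with all 18 above 0, and that of all genes was 0.07. Among all 32 genes 22 were called higher and 1, Srebf1, lower. The only sterol enzyme not called, Tm7sf2, a sterol reductase, had a log2 ratio of 0.42 (0.21 to 0.63), and its exons share 532 bases with Vps51 on the same strand. On the spike-in scale, in which counts are divided by those of RNA added to every well, the median of all genes shifted to 0.47, and the number of the 32 called higher stayed within 1.5 times of 22.

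In the mevalonate branch, Fdps, which makes farnesyl diphosphate (chr3:89093588-89101959), was at 55.3, 30.5, 159.9 and 328 CPM in the quiescent, 24 h, 48 h and activated cultures. It had the largest activated-to-quiescent log2 ratio of the 32 genes, 2.37 (2.21 to 2.54), and lay lowest at 24 h. Hmgcs1, the HMG-CoA synthase that opens the branch (chr13:119690379-119708260), was at 257, 194, 451 and 629 CPM, with a log2 ratio of 1.26 (1.17 to 1.35). Idi1, the isopentenyl diphosphate isomerase (chr13:8885501-8892451), was at 53.6, 42, 99.7 and 201 CPM, and Acat2, the cytosolic thiolase that supplies acetoacetyl-CoA, at 49.6, 38.1, 132 and 212 CPM. By their levels these genes shared 1 order, with 24 h below quiescent, then 48 h, then activated, as did 15 of the 18 sterol enzymes, all but Dhcr7, Sc5d and Tm7sf2. The kinases and the decarboxylase in between were scarcer in these counts, which tag each molecule once at its 3′ end and are not scaled by length. Mvk, mevalonate kinase, was at 20.6, 16.1, 46.6 and 92.5 CPM. Pmvk, phosphomevalonate kinase, was at 21, 15.1, 34.7 and 55.8 CPM. Mvd, the decarboxylase, was at 11, 5.25, 29.3 and 31.4 CPM, and its 48 h and activated levels did not differ beyond counting error (log2 ratio -0.07, -0.32 to 0.18).

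From squalene onward, Sqle, squalene epoxidase, a rate-limiting step of the branch (chr15:59315077-59331192), was at 94.3, 81.4, 228 and 360.3 CPM. Msmo1, a C4-demethylase (chr8:64718139-64733792), was at 142, 139, 313 and 460.2 CPM, and Cyp51, the lanosterol demethylase (chr5:4081145-4104746), at 170.2, 110.0, 347 and 413 CPM. Msmo1 did not differ between quiescent and 24 h beyond counting error (log2 ratio -0.03, -0.20 to 0.13), while Cyp51 was lower at 24 h (-0.59, -0.76 to -0.42). Fdft1, squalene synthase, was at 77.7, 55.5, 201 and 288 CPM. Its exons share 774 bases with Ctsb on the opposite strand, which was at 515, 685, 353 and 142 CPM, in the opposite order, and whether counting used strand is not given in the sources used here. Lss, lanosterol synthase, was at 19.5, 12.8, 42.2 and 91.3 CPM, and Nsdhl, a sterol dehydrogenase, at 52.1, 37.4, 103 and 148 CPM. Dhcr7, the reductase that makes cholesterol from 7-dehydrocholesterol, was at 63.4, 43.7, 174 and 148 CPM. It was the only sterol enzyme above its activated level at 48 h (log2 ratio 0.22, 0.09 to 0.35), short of a call. Sc5d, the sterol C5-desaturase, was at 35.5, 40.1, 62.3 and 85.1 CPM, and was the only sterol enzyme with a 24 h ratio above 0 (0.14, -0.14 to 0.41). Ebp, the sterol isomerase, was at 14.1, 11.2, 17.7 and 37.0 CPM. Hsd17b7, a sterol ketoreductase, was at 31.4, 28.9, 40.5 and 56.4 CPM, and Tm7sf2 at 37.8, 25.9, 37.3 and 54 CPM. In 8 of the 18 sterol enzymes (Fdps, Idi1, Mvk, Pmvk, Lss, Ebp, Hsd17b7 and Tm7sf2) the 48 h level lay nearer the quiescent than the activated level.

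The promoters of 25 of the 32 genes were in the RefSeq table for GRCm38.p6 and were searched on both strands, from 250 bases before the start to 50 after, since all 18 sterol enzymes were higher in activated than in quiescent cells and SREBPs are known to act with the factors NF-Y and Sp1. The NF-Y letters ATTGG lay in 13 of 15 sterol windows (86.7%), 3 of 6 fatty acid windows (50.0%) and 37.9% of 27018 promoters. The GC box GGGCGG, known as an Sp1 motif, lay in 14 of 15 sterol windows (93.3%), 3 of 6 fatty acid windows and 35.9% of all. A short form of the sterol regulatory element, TCACNCCA, lay in 2 of 15 sterol windows, Hmgcs1 and Msmo1, in Srebf2 and in 4.29% of all promoters, and the full 10-letter element in 0 of 25 and 0.0851% of all. The E-box CACGTG lay in 4 of 25 windows and 7.24% of all. Where a gene had more than 1 window the first listed was used. Fdps, Fdft1, Sqle, Stard4, Scd1, Scd2 and Fads1 had none. The Acaca window (chr11:84195188-84195437 before the start) lies inside the gene as GENCODE places it (chr11:84129672-84401651). The fatty acid shares thus rest on few windows. GC-rich promoters hold a GC box more often and no base composition was matched, so these shares are descriptions of letters. Shown are the 250 bases before the start for the 3 sterol enzymes of highest mean CPM, for Idi1, which was called in the gate test below, for Srebf2 and, for contrast, for Fasn, 5′ to 3′ on the gene's strand, with TCACNCCA and ATTGG or its complement CCAAT in capitals. Starts are RefSeq's and differ from those of the gene positions above, which are GENCODE's.
Hmgcs1, chr13:119690101-119690350, plus strand: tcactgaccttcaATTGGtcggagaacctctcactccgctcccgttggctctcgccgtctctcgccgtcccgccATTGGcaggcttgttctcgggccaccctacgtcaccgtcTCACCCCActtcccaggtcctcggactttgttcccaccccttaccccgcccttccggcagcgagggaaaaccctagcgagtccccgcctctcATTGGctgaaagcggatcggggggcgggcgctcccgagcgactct
Idi1, chr13:8885356-8885605, plus strand: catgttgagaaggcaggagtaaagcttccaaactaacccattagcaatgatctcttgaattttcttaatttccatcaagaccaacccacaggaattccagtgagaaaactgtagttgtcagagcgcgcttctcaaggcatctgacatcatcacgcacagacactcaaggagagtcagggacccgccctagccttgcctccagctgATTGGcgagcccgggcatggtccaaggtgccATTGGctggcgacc
Cyp51, chr5:4104698-4104947, minus strand: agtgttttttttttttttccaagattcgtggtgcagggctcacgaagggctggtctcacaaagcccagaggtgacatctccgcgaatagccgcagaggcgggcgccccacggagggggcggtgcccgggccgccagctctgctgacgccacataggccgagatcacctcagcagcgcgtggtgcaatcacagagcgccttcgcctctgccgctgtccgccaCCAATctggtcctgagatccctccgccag
Msmo1, chr8:64733579-64733828, minus strand: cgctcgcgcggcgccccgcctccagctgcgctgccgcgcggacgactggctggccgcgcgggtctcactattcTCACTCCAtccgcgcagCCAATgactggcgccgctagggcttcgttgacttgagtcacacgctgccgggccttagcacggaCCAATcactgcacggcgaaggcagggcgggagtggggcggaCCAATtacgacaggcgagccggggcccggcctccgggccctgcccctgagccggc
Srebf2, chr15:82147019-82147268, plus strand: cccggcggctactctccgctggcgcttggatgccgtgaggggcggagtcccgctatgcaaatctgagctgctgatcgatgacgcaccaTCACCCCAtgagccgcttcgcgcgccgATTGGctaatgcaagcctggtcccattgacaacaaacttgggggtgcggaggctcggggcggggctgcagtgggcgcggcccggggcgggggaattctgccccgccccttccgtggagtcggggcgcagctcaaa
Fasn, chr11:120824548-120824797, minus strand: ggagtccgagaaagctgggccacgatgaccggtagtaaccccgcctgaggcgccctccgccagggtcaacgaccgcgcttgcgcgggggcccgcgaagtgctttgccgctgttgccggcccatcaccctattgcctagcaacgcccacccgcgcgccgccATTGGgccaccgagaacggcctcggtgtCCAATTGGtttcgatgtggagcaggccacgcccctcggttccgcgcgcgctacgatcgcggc

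In the printed stretches Hmgcs1 holds 3 ATTGG matches beside its TCACNCCA match and Msmo1 holds 3 CCAAT matches, while Cyp51 holds 1. Idi1 holds 2 ATTGG matches close to the start and no TCACNCCA match. Srebf2 holds 1 ATTGG match beside its TCACNCCA match. Fasn holds 3 matches, 2 of them overlapping, and no TCACNCCA match.

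At 24 h after the return to activation medium the sterol enzymes did not stand above quiescence. Of 18, 17 had ratios to the quiescent culture below 0, with a median log2 ratio of -0.34 against -0.01 for all genes, and intervals of 11 lay wholly below 0 and of 0 above. Fdps (-0.69) and Cyp51 were called lower, and with Scd1 3 of the 32 genes, where 6.27% of 10462 genes were called lower and 4.53% higher. These cultures shared a plate. The count depends on scale and gate: it was 17 of 32 on the spike-in scale, on which the median of all genes was -0.29, 7 with 1 CPM added in place of 10, 1 in the Low gate, with 2 called higher (18% of all genes lower, 8.36% higher there) and 12 in the High gate (8.4% lower, 9% higher).

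Between 24 h and 48 h, 14 of 18 sterol enzymes were called higher and 20 of the 32 genes, against 11.7% of 10324 genes higher and 9.89% lower. The sterol median log2 ratio was 1.18, all 18 intervals lay above 0, and the median of all genes was -0.03. Fdps led again at 2.07 (1.82 to 2.32), followed by Dhcr7 at 1.78 (1.55 to 2.01) and Fdft1 at 1.69 (1.48 to 1.90). Ebp, Hsd17b7, Tm7sf2 and Sc5d, all of the later sterol steps, were the 4 not called, at 0.38 to 0.53. Mki67, a gene of dividing cells, was also higher: it was at 36.2, 35.9, 359 and 333 CPM in the quiescent, 24 h, 48 h and activated cultures, and cells that the authors placed in S or G2/M made up 9.20%, 4.64%, 71.5% and 85.4%. Among cells outside S and G2/M the 48 h sterol sum was 2123 CPM (2037 to 2212, 43 cells) against 917 (882 to 952, 144 cells) at 24 h. By the authors' phases these were 22 G0 and 21 G1 cells at 48 h, and 138 G0 and 6 G1 cells at 24 h. The 2 groups thus differ in phase, and the part of division in the 48 h levels was not tested.

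At 48 h the sterol enzymes stood below the activated culture on the same plate. Of 18, 7 were called lower and 0 higher, with a median log2 ratio of -0.52 against -0.08 for all genes, and 10 of the 32 were lower against 7.92% of 10780 genes lower and 4% higher. Fdps (-0.99), Lss (-0.96), Idi1 (-0.95), Mvk (-0.86) and Ebp (-0.76) differed most. Against the quiescent culture 14 of 18 were called higher at 48 h (median 0.88) and 17 of the 32, against 11.9% of 10663 genes higher and 11.6% lower. Counts against the activated culture were made gate by gate too: 0 of the 32 were called lower and 3 higher in the Low gate (9.38% of all genes lower, 9.72% higher), and 19 lower and 0 higher in the High gate (14.9% lower, 5.53% higher). Between activated and quiescent cells 19 of the 32 were called higher and 1 lower in the Low gate, where 24% of all genes were higher and 22.9% lower. Gates of the same name differed in autofluorescence between cultures, as given below, so these counts are not matched for it.

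**Figure D2:**
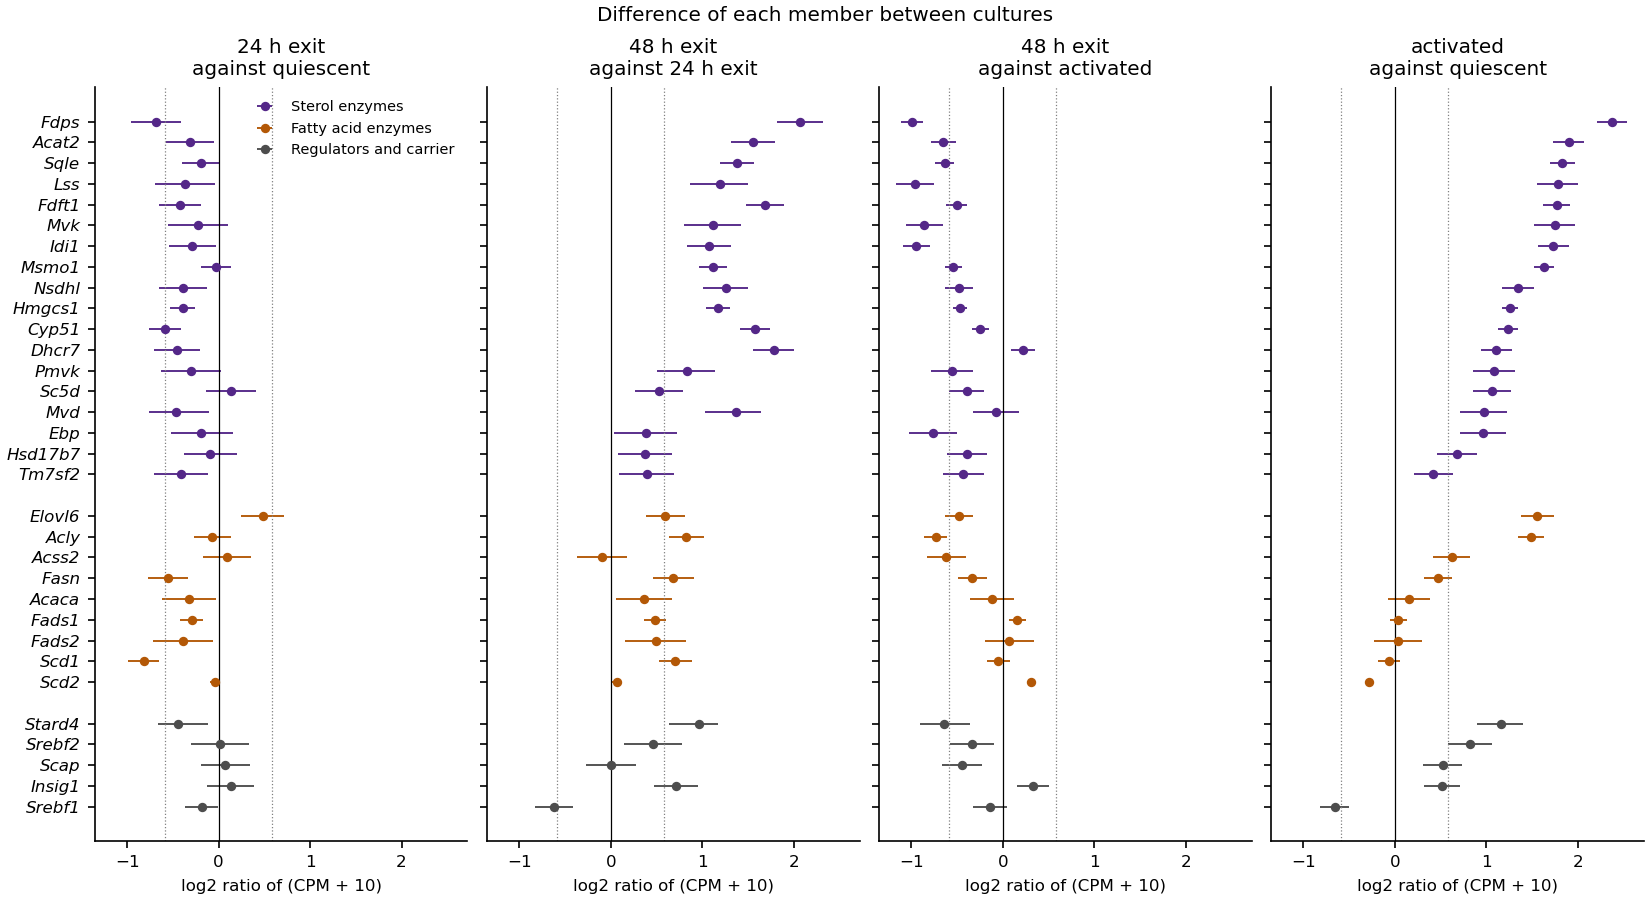
Log2 ratio of CPM + 10 for each gene in 4 contrasts, with 95% intervals for counting error; dotted lines mark 1.5-fold. All sterol enzymes but Sc5d lie below 0 at 24 h, and all lie to the right of 0 in the 48 h to 24 h and activated to quiescent contrasts, where most fatty acid enzymes lie nearer 0.

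Fatty acid enzymes were already abundant in quiescence and differed little in sum when Scd2 was included. The 9 genes summed to 2587 CPM (2542 to 2633), 2363 (2309 to 2418), 2794 (2743 to 2846) and 2636 (2597 to 2676) in the quiescent, 24 h, 48 h and activated cultures. The sum is mostly Scd2, a stearoyl-CoA desaturase (chr19:44293674-44306864), at 1750.5, 1704, 1783 and 1439 CPM, whose activated level was lower than the quiescent one, short of a call (log2 ratio -0.28, -0.32 to -0.24). Without Scd2 the median cell held 798, 629, 1059 and 1141 CPM of fatty acid transcripts in the same order of cultures. With Scd2 it held 2487, 2246, 2994 and 2439 CPM. In activated cells 3 of 9 were called higher (Elovl6, Acly and Acss2), with a median of 0.15, against 19.8% of all genes. Elovl6, which lengthens palmitate to stearate, was at 44.7, 66.3, 106 and 151 CPM, higher at each step in that order. Acly, the ATP citrate lyase that makes cytosolic acetyl-CoA for both branches, was at 90.4, 85.7, 159 and 272 CPM. Acss2, the acetyl-CoA synthetase, was at 41.7, 45.3, 41.7 and 69.5 CPM, and its exons overlap those of Ggt7 and Gss on the opposite strand.

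The remaining fatty acid enzymes were flatter between activated and quiescent cells. Fasn, fatty acid synthase, was at 93.1, 60.4, 103 and 133 CPM (activated to quiescent 0.47, 0.32 to 0.62). Acaca, acetyl-CoA carboxylase, was at 33.9, 24.9, 34.9 and 38.7 CPM, with an interval that spans 0 (-0.08 to 0.38). Scd1, a desaturase beside Scd2 on chromosome 19, was at 191, 104, 176 and 183 CPM, and was the fatty acid enzyme called lower at 24 h (-0.82, -0.99 to -0.65). How reads that match both paralogs were counted is not given in the sources used here. The polyunsaturated fatty acid desaturases Fads1, at 321, 259, 368 and 329 CPM, and Fads2, at 20.8, 13.5, 23 and 21.5 CPM, did not differ between activated and quiescent cells beyond counting error. Of the 9 enzymes 6 were lowest at 24 h.

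The regulators did not share 1 direction. Srebf1, which encodes SREBP-1 (chr11:60199089-60222581), was at 126, 109.7, 67.9 and 75.9 CPM and was the 1 gene of 32 called lower in activated cells (-0.66, -0.82 to -0.50), against 14.3% of all genes. Its exons share 109 bases with Rai1 on the opposite strand, which was at 18.7 to 24.0 CPM. Srebf2, which encodes SREBP-2 (chr15:82147181-82205379), was at 19.7, 20.0, 31.5 and 42.5 CPM and was called higher (0.82, 0.58 to 1.06). Scap, the escort of both precursors, was at 38.8, 41.4, 41.5 and 60.1 CPM, with the first 3 cultures within counting error of each other. Insig1, which holds SCAP in the endoplasmic reticulum and is itself an SREBP target, was at 45.3, 50.6, 89.2 and 68.9 CPM, highest at 48 h. Stard4, a soluble sterol carrier, was at 6.23, 1.97, 13.3 and 26.4 CPM, lowest at 24 h and highest in activated cells, and called higher in activated cells (1.16, 0.90 to 1.40).

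Other genes of sterol and fatty acid handling gave other counts, beside the same 19.8% of all genes higher and 14.3% lower. Of 21 genes of sterol efflux, storage and the LXR pathway, 20 were in the table and 17 had enough counts: 8 were called lower and 2 higher in activated cells, with a median of -0.51. The 2 higher were Scarb1 (0.84) and Lbr (2.10). Lbr, a sterol reductase, belongs to synthesis although it was placed in this list. It was at 6.02, 8.21, 53.1 and 58.7 CPM in the quiescent, 24 h, 48 h and activated cultures. Lcat, which esterifies cholesterol on lipoproteins, went from 1270 CPM in quiescence through 513 and 35.4 to 9.29 in activated cells. Apoe, a lipoprotein carrier, was at 746, 556, 64.8 and 10.4 CPM, and Abca1, a cholesterol exporter, at 245, 168, 22.8 and 1.22 CPM. For these 3 genes the 24 h culture stood between quiescent and 48 h. Of 11 isoprenoid genes 2 were called higher and 0 lower (median 0.28), led by Pdss1 and Coq2 of ubiquinone synthesis, at 1.14 and 0.70, and by Rce1, which processes prenylated proteins, at 0.56. Of 25 genes of fatty acid activation, elongation and supply 3 of 22 tested were called higher and 7 lower (median -0.05), with Elovl2 at -1.95, Thrsp at -0.92 and Elovl4 at -0.91.

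Within the exit cultures the sterol enzymes, by sum, were highest in the least autofluorescent cells. At 24 h their sum was 1485 CPM (1382 to 1597) in the Low gate, 995 (930 to 1064) in Low-mid, 791 (730 to 855) in Mid-high and 665 (612 to 721) in High. At 48 h it was 3777 (3648 to 3909), 3188 (3071 to 3307), 1757 (1671 to 1845) and 1858 (1789 to 1929), a step between the lower and the upper pair of gates. The quiescent culture gave 1432, 1338, 1011 and 1148 CPM, which rank the gates as the 48 h sums do over a narrower range. The activated culture gave 3527, 3947, 3841 and 3524 CPM, with Low and High alike. Past 1.5-fold between High and Low, 11 of 14 sterol enzymes with enough counts were lower and 1, Mvk, higher with an interval that spans 0 at 24 h (all genes 10.3% lower, 7.84% higher), and 13 of 18 were lower at 48 h (13.4% lower, 4.18% higher). In quiescence 3 of 18 were lower (10.8% lower, 1.98% higher), and in the activated culture 0 of 18 passed 1.5-fold either way (3.51% lower, 5.1% higher).

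Totals per spike-in count were higher in High than in Low cells, going from 53.7 to 107 in quiescence, 44.9 to 73.2 at 24 h, 64.8 to 114 at 48 h and 81.2 to 167 in the activated culture, so the scale bears on this result. In counts per spike-in count the 24 h sterol sum was 0.0667, 0.0514, 0.0425 and 0.0487 from Low to High, and the 48 h sum 0.245, 0.260, 0.158 and 0.211. On that scale the quiescent sum went from 0.0769 to 0.122 and the activated sum from 0.286 to 0.588. The exit cultures thus had less sterol transcript in High than in Low cells on both scales, and the other 2 had more on the spike-in scale only.

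**Figure D3:**
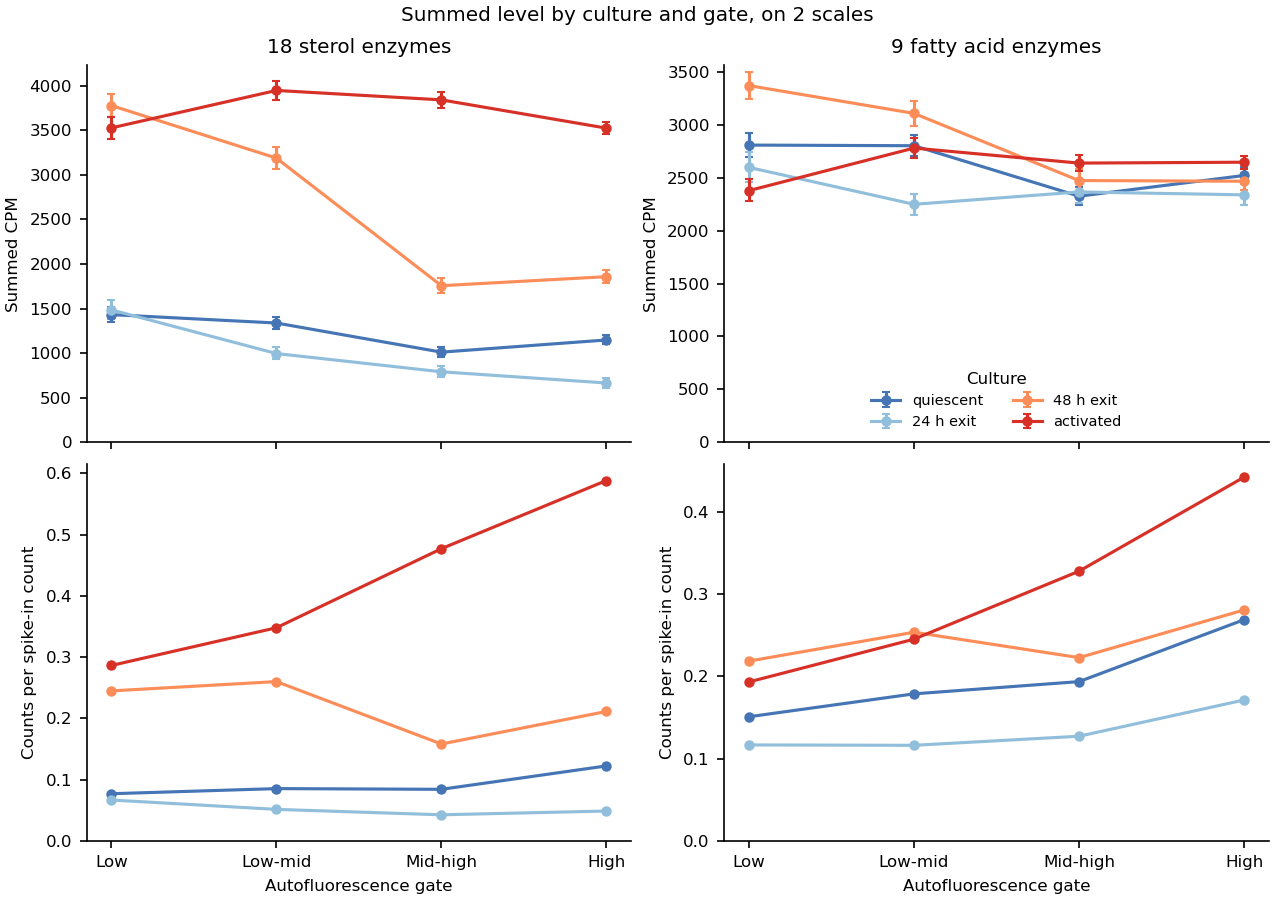
Summed level of the 18 sterol and 9 fatty acid enzymes by autofluorescence gate in each culture, as CPM with 95% Poisson intervals (top) and as counts per spike-in count (bottom). The sterol sums of the 24 h and 48 h cultures are lower in the High than in the Low gate in both rows, whereas those of the activated culture are flat in CPM and higher in High per spike-in count.

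For the abundant sterol enzymes the gate levels read as follows. Hmgcs1 was at 297, 207, 167 and 148 CPM from Low to High at 24 h and at 728, 543, 298 and 329 at 48 h, against 625, 712, 655 and 572 in the activated culture and 265, 316, 224 and 240.0 in quiescence. Cyp51 was at 199, 113, 89.1 and 75.2 at 24 h and at 521, 431, 256 and 252 at 48 h, against 389, 381, 428 and 427 in the activated culture and 195, 184, 147 and 165 in quiescence. Msmo1 was at 205, 145, 123 and 109 at 24 h and at 451, 417, 199 and 241 at 48 h, against 413, 476, 474 and 459 in the activated culture and 202, 147, 92.9 and 143 in quiescence. In all 3 genes the 48 h Low gate was near or above the activated Low gate, while the 48 h High gate was below the activated one. Gates of the same name were not matched for autofluorescence between cultures. Its median was 3198 in 48 h and 2477 in activated Low cells, and 10253 and 7259 in High cells.

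Among fatty acid enzymes Scd2 hardly followed the gate at 24 h, at 1783, 1603, 1728 and 1736 CPM, and was at 2035, 1908, 1631 and 1654 at 48 h, 1878, 1886, 1506 and 1770.5 in quiescence and 1253, 1509, 1411 and 1485 in the activated culture. Fads1 was at 307, 265, 251 and 234 at 24 h, 418, 418, 324 and 335 at 48 h, 412, 351, 277 and 287 in quiescence and 305, 364, 307 and 334 in the activated culture. Scd1 was at 153, 95.5, 80.3 and 106 at 24 h, 221, 199, 175 and 137 at 48 h, 183, 193, 218 and 176 in quiescence and 162, 168, 205 and 181 in the activated culture. In the High gate 5 of 9 fatty acid enzymes were called lower at 48 h, against 13.4% of all genes, and 1 of 8 at 24 h, against 10.3%.

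The regulators had no shared order across gates. Srebf1 was highest in the High gate at 24 h, at 93.7, 96.7, 108 and 133 CPM, and was at 73.5, 82.4, 56.7 and 62.8 at 48 h, 138, 140.5, 127 and 109.7 in quiescence and 72.2, 81.1, 78.4 and 72.9 in the activated culture. Insig1 was at 75.7, 50.6, 45.2 and 41 at 24 h and at 81.6, 115, 87.8 and 79 at 48 h, against 39.2, 44.6, 42.6 and 50.5 in quiescence and 81.5, 77.2, 68.9 and 60.8 in the activated culture. Scap lay between 34.8 and 66.1 CPM in all 16 culture and gate groups.

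Tested over all 4 cultures, only a small part of this passed. With edgeR's quasi-likelihood test on the 16 sums and culture as a block, Idi1 fell by 0.66 on the log2 scale (SE 0.17, adjusted p = 0.0175) and Sqle fell by 0.51 (SE 0.13, adjusted p = 0.0181) from Low to High. These were 2 of 32 genes called lower and 0 higher, where 1.94% of 8934 genes fell and 3.91% rose. Idi1 was at 73.7, 51.2, 49.4 and 48.2 CPM in quiescence, 89.7, 50.6, 25.1 and 21.6 at 24 h, 167, 113, 70 and 70.9 at 48 h, and 212, 209, 219 and 182 in the activated culture. Sqle was at 114, 105, 89.4 and 81.2, then 129.6, 95.5, 65.3 and 54.7, then 339.7, 305, 150.1 and 166, and 404, 391, 339.5 and 345 CPM in the same order. Both were lower in High than in Low in 4 of 4 cultures. The test that picked them averaged over these same cultures, so this adds no support. In the activated culture the counting intervals of Low and High overlap for both genes. Among the 32 genes 12 had an unadjusted p below 0.05. Idi1 and Sqle were singled out for gate values after these were seen. Without the 24 h or without the 48 h culture 0 of the 32 were called, without the activated culture 10, without the quiescent culture 5, and with only cells outside S and G2/M 0. That fit held 12 sums in place of 16, since the activated Low gate had no such cells and its culture was left out, and its sterol median was -0.42, against -0.40 in the fit on all cells and -0.65 in the fit on all cells without the activated culture.

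Because the gate levels differed by culture, a fit on the 2 exit cultures alone was added after these levels were seen. There 14 of 32 genes fell, 12 of 18 sterol enzymes and 2 of 9 fatty acid enzymes (Elovl6 and Acly), against 1.48% of 8513 genes that fell, and 0 rose, against 2.09%. This fit has 3 residual degrees of freedom and takes 33.7 more from the spread shared across genes. Its cultures were picked by the gate levels that it fits, so its p-values describe the fall and are not independent support for it. Hmgcs1 fell by 0.92 (SE 0.16, edgeR adjusted p = 0.000308), Cyp51 fell by 1.00 (SE 0.17, edgeR adjusted p = 0.000308) and Fdft1 fell by 1.09 (SE 0.19, edgeR adjusted p = 0.000452). In a like fit on the quiescent and activated cultures 0 of 32 were called (0.199% of 9553 genes fell and 0.785% rose), with 0 at an unadjusted p below 0.05 and a sterol median of 0.01. The difference between the 2 pairs of cultures, tested as an interaction in edgeR, called 0 of 9225 genes at an adjusted p below 0.05. There 627 genes, and among the 32 genes 17, had an unadjusted p below 0.05, and no other tool was run on the difference. The smallest adjusted p of the 32 genes was 0.0766, of Cyp51, whose High to Low change differed by -1.11 (SE 0.22) between the pairs.

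**Figure D4:**
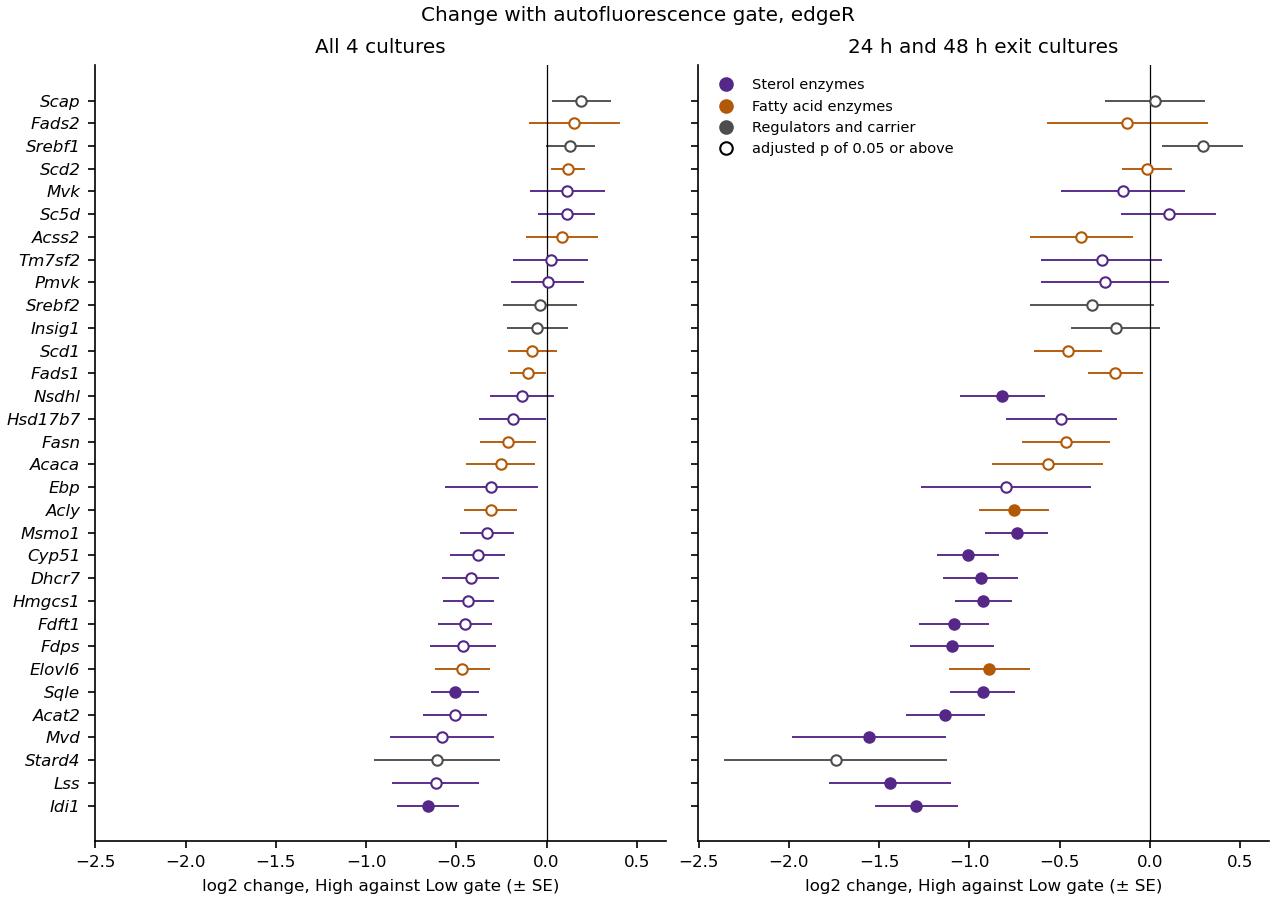
Log2 change from the Low to the High gate with its SE for each gene, from edgeR fits on all 4 cultures (left) and on the 2 exit cultures (right); filled points have an adjusted p below 0.05. Idi1 and Sqle are filled on the left, and 14 genes on the right, 12 of them sterol enzymes.

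The share of cells in S or G2/M was lower in higher gates at 48 h, at 81%, 75.0%, 69.7% and 60.0% from Low to High. In the activated culture, where the sterol sums of Low and High were alike, it was 100%, 85.4%, 81.4% and 78.3%. Among the 8 to 16 cells a gate outside those phases the 48 h sterol sum was 2906, 2707, 1240 and 2022 CPM, with 4 of 16 enzymes called lower and 1 higher, where 21.9% of 4305 genes were called lower and 13.1% higher. At 24 h, with 2.63% to 6.82% of cells in S or G2/M in every gate, 11 of 14 were also lower among cells outside those phases (9.99% of all genes lower, 8.24% higher), and in quiescence 3 of 18 (11.7% lower, 1.83% higher). Ribosomal protein genes took a median of 5.31% of counts in 48 h Low cells and 3.12% in High cells, and mitochondrial transcripts 6.93% and 10.3%. Astrocyte markers summed to 765 CPM in 48 h Low and 1275 in High cells, and to 1948 and 3149 at 24 h. In quiescence these markers went the other way, with 2026 CPM in Low and 1702 in High cells, and they summed to 510 and 610 in the activated culture. Their part in the gate result was not tested.

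Single cells varied widely in their sterol level, in counts not brought to 1 depth. The median cell total was 25137, 19270, 24947 and 35945.5 transcripts in the quiescent, 24 h, 48 h and activated cultures. Counting noise adds more spread where totals are smaller, and its part was not tested. The median cell held 988, 706, 2387 and 3289 CPM of sterol transcripts in the quiescent, 24 h, 48 h and activated cultures, and the ratio of the 90th to the 10th percentile was 5.17, 6.195, 6.18 and 2.60. In the 24 h Low gate the 10th percentile, median and 90th percentile were 173, 837 and 3307 CPM, and in the High gate 336, 650 and 984. The medians of these 2 gates were thus closer than the sums, and the Low gate reached higher. Its cells were also shallower, with a median total of 14234 transcripts against 23480 in the High gate. The quiescent medians were 1167 CPM in Low and 897 in High cells, and the activated medians 3423 and 2967. A lower median in High was thus not particular to the exit cultures. At 48 h the whole range shifted, from a median of 3844 in Low to 1528 in High.

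**Figure D5:**
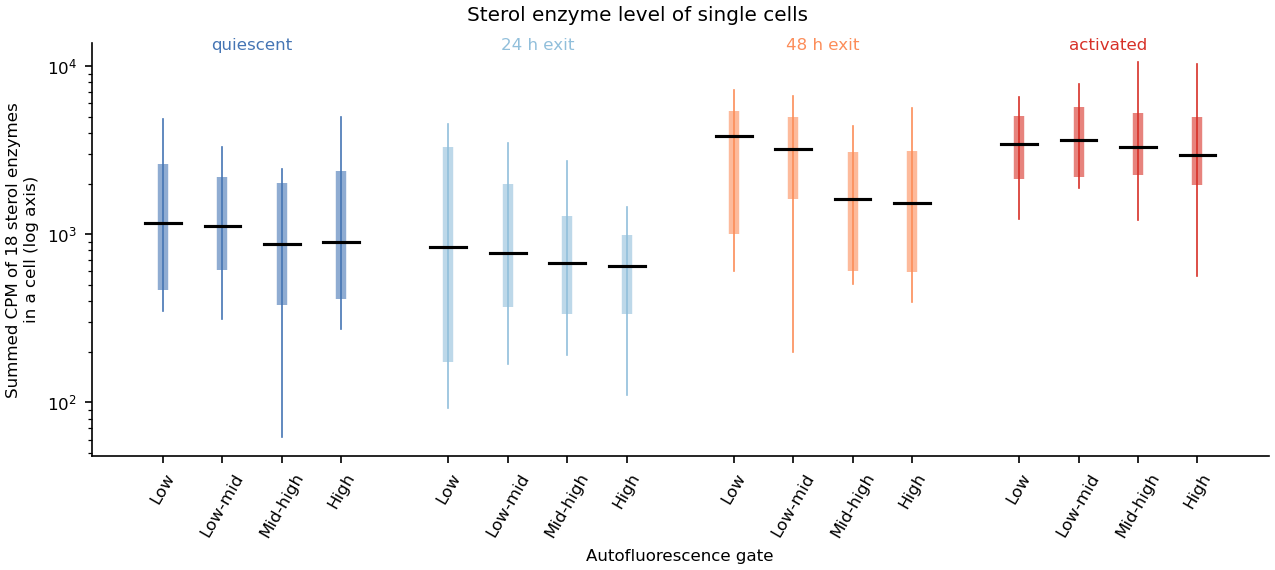
Summed CPM of the 18 sterol enzymes in single cells, on a log axis, by culture and gate; black lines are medians, thick bars span the 10th to 90th percentile and thin lines the lowest and highest cell. In the 24 h Low gate the thick bar reaches 3307 CPM above a median of 837, and at 48 h the medians go from 3844 in Low to 1528 in High.

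Across cells the sterol and fatty acid levels were compared within each culture. The Spearman correlation of sterol with fatty acid transcripts other than Scd2 was 0.53 over 174 quiescent cells, 0.25 over 151 cells at 24 h, 0.82 over 151 at 48 h and 0.71 over 164 activated cells, given as a description, since the cells share a library and differ in depth. That of sterol transcripts with autofluorescence was -0.17, -0.15, -0.54 and -0.09 in the same order, and with the cell total -0.00, -0.04, -0.19 and 0.07.

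The authors' clusters followed the cultures, except that 48 h cells were split between cluster 3 (109 cells) and cluster 0 (41 cells), which also held 145 of 151 24 h cells. The clusters were set on the expression of these cells, so this is a description. The 48 h cells of cluster 0 held 1933 CPM of sterol transcripts (1851 to 2019), between the 909 (874 to 944) of 24 h cells in the same cluster and the 2720 (2661 to 2779) of 48 h cells in cluster 3. Acat2, at 67.5 and 153 CPM in clusters 0 and 3, and Lss, at 20.6 and 50.02, differed most, while Scd2, at 1812 and 1777, did not differ beyond counting error. Of 40 High cells at 48 h 17 were in cluster 0, and of 42 Low cells 4.

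Between S or G2/M cells and the other cells of the same culture no sterol enzyme passed the test, though Acat2 did under alternatives given below. The other cells were 146 G0 and 12 G1 in quiescence, 22 G0 and 21 G1 at 48 h, and 1 G0 and 23 G1 in the activated culture. The test thus does not compare dividing with resting cells. The sterol sum in S or G2/M cells and in the others was 979 and 1232 CPM in quiescence, 2660 and 2123 at 48 h, and 3652 and 3896 in the activated culture, so its direction differed by culture. In edgeR, over these 3 cultures with culture as a block, 0 of 18 sterol enzymes passed, where 8.86% of 10082 genes rose and 5.69% fell in S and G2/M. Of the 18, 3 had an unadjusted p below 0.05, and DESeq2 called 0 of 32. Acat2 was called higher in S and G2/M without the quiescent culture (0.49, SE 0.15, edgeR adjusted p = 0.0226) and without the filter on low counts (0.46, SE 0.16, edgeR adjusted p = 0.0415). Of the 32 genes Scd2 fell, by 0.34 (SE 0.086, adjusted p = 0.0131). It was at 1334 CPM in S or G2/M and 1797 in other cells in quiescence, 1758 and 1854 at 48 h, and 1395 and 1658 in the activated culture. The adjusted p was 0.101 without the quiescent culture, 0.112 without the activated one and 0.0700 in DESeq2.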

How the data were processed

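Expected counts per gene and cell were deposited: molecule numbers that the authors adjusted for chance reuse of any of the 4096 identifiers, since undoing the adjustment gave whole numbers. The submitters' processing notes name BWA 0.7.15, R 4.2.0, Seurat 4.1.1, hg19 and mm10 without their roles. A deposited table of cells holds condition, gate, phase, cluster, the percent of mitochondrial and ribosomal counts and autofluorescence intensity, all computed or recorded by the authors, per the file headers. The authors' phase score columns were not used beyond the phase named. Cell filtering, doublet treatment and use of strand are not given in the sources used here. Cells were sorted singly into wells.

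Counts of kept cells were summed per culture, or per culture and gate, and divided by totals (CPM). Log2 ratios had 10 CPM added, with conditional binomial 95% intervals for counting error only. Shares called use genes with at least 20 counts and a fold of 1.5. Rounded sums were tested in edgeR 4.0.16 (R 4.3.3), using TMM factors, filterByExpr, the quasi-likelihood test and Benjamini-Hochberg adjustment over all genes at 0.05: High against Low gate over 16 sums, culture as a block, 9 residual degrees of freedom, common biological coefficient of variation 0.100; and S or G2/M against other cells in the 3 cultures with at least 10 cells in both classes, 2 residual degrees of freedom. Gates of 1 culture share their source, so p-values measure the spread between these sums. DESeq2 1.42.0 was an alternative. The main gate and phase fits in edgeR were run on simulated data. The alternative fits, the fits on pairs of cultures and the interaction were not. Other steps used Python 3.11.15.

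Members, lists and tests were chosen with earlier results of these data known. Values per culture are given for members with at least 200 counts, which all had, and values per gate for the 3 of each group with the highest mean CPM. Genes of other lists are the 3 with the largest activated-to-quiescent ratio, in either direction, among those with at least 100 counts. Scarb1 and Lbr were named besides, as the genes called higher in their list. Fits on pairs of cultures and the interaction were added after seeing the data. Gene positions are from GENCODE on GRCm38 and promoters from RefSeq on GRCm38.p6.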

Additional observations from a re-analysis of the deposited data

How the results depend on the processing

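The 22 of 32 genes called higher in activated than in quiescent cells stayed within 1.5 times of that number under every alternative run. Genes called lower at 24 h than in quiescence numbered 3, and 7 with 1 CPM added, 17 on the spike-in scale, 1, 7, 6 and 12 in the Low, Low-mid, Mid-high and High gates alone, and 0 at 2-fold. Genes higher at 48 h than at 24 h numbered 20, and 13 at 2-fold. Between 48 h and activated cells 10 were lower, and 23 on the spike-in scale, 6 with the mean of each cell's CPM, 0, 21 and 19 in the Low, Mid-high and High gates, 16 outside S and G2/M, 6 after thinning and 0 at 2-fold. Those higher at 48 h than in quiescence numbered 17, and 9 in the High gate and 7 at 2-fold. Genes called lower in the High gate numbered 2, and 5 with DESeq2 (adjusted p for 19 of 32), 6 without the filter, 6 as a slope over gates, 0 without the culture as replicate block, 0 outside S and G2/M (12 sums, no activated culture, sterol median -0.42 against -0.40), 0 to 10 with 1 culture left out, 14 in the exit cultures and 0 in the other 2. Genes lower in S and G2/M numbered 1, and 0 with DESeq2, 0 without the replicate block and 0 to 1 with 1 culture left out; Acat2 was called higher without the filter and without the quiescent culture. The causes were not tested. No median log2 ratio past 1.5-fold, of the sterol or fatty acid enzymes, changed sign, nor did the log2 change of a gene called in a main test. Smaller medians were outside this check, among them the sterol medians at 24 h against quiescent and at 48 h against activated cells. No paired analysis was possible because the labels' numbers name plates, which hold different cultures, so the block is the culture. Depth limits the scarcest genes: Stard4, Fads2 and Mvd had 264, 377 and 396 counts in all.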
